A study of Mus musculus with 12 samples.

Results

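The 10 heat shock chaperone genes described here were measured in lung of C57BL/6NCr mice, a C57BL/6 substrain, aged 6 months (6M), 12 months (12M), 20 months (20M) and 30 months (30M). They are the rows of the deposited count table whose symbol is Hspa1a, Hspa1b, Hspa8, Hsp90aa1, Hsp90ab1, Hsph1, Dnajb1, Hspb1, Hspd1 or Hspe1, which makes 10 of 55487 genes. This rule uses no measured value, though the members were chosen with earlier results of these data known. All 10 passed the filter on low counts and stood among the 18407 genes tested. Lung tissue gave 3 libraries of poly-A selected RNA at each age, and a name such as 6M_201 joins age and replicate number. The labels name the substrain and no other allele, agent or treatment, and give neither the sex of the mice nor whether libraries came from separate animals, so the spread behind each p-value may be technical. Lung tissue mixes many cell types, and in such bulk samples fewer cells of a type and less RNA per cell cannot be told apart.

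Heat shock chaperones bind unfolded or partly folded proteins and help them fold, stay soluble or be degraded. HSP70 proteins work in cycles with J-domain partners, which deliver the client and trigger ATP hydrolysis, and with nucleotide exchange factors, which reset the cycle. HSP90 proteins take over many clients at a late stage of folding, and small heat shock proteins hold unfolding clients without ATP. The transcription factor HSF1 binds heat shock elements, which are repeats of the unit GAA and its inverted form TTC, and drives many of these genes when proteins unfold, so their transcripts also respond quickly to heat and ischemia. The set is called cytosolic by its label, but Hspd1 and Hspe1 encode the mitochondrial chaperonin and its lid.

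The promoter sequences are shown because the members varied together between libraries, as described further on, and because a pair of them, Hspa1a and Hspa1b, can hardly be told apart by sequence. RefSeq promoters of GRCm38.p6 matched 7 of the 10 members by symbol, namely Hspa1a, Hspa1b, Hsph1, Dnajb1, Hspb1, Hspd1 and Hspe1. The 250 bases before each annotated start were searched for 2 inverted neighbouring units (GAANNTTC or TTCNNGAA) and for 3 in a row, GAA and TTC alternating with 2 bases of any kind between neighbours. These forms cover both strands, and every 3-unit match also holds 2-unit matches. The 250 bases before Hspa1a (chr17:34972157-34972406, minus strand) and before Hspa1b (chr17:34959239-34959488, minus strand) follow, 5′ to 3′, with the 2-unit match in capitals.
Hspa1a: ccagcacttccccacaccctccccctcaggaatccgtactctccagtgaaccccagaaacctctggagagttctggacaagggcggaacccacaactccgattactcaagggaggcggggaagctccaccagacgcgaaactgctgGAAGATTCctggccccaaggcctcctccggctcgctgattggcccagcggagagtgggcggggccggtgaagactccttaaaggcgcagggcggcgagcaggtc
Hspa1b: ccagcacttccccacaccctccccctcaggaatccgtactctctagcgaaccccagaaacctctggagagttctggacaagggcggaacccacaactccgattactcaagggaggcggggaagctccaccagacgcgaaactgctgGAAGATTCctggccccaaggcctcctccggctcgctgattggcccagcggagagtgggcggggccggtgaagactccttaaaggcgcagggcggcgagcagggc
The 2 stretches were identical at 247 of 250 bases (98.8%), and in both the match lay 104 to 97 bases before the start.

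Matches in the other members are shown with their flanks, again 5′ to 3′ on the gene's strand with the matched bases in capitals. The Hspd1 and Hspe1 lines are the 2 strands of 1 stretch, since these genes are transcribed away from each other from a shared promoter region.
Hsph1 (chr5:149636352-149636379, minus strand): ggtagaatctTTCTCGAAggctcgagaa
Hspb1, distal (chr5:135887792-135887819, plus strand): ttcaacaagaGAAGTTTCcagatggggg
Hspb1, proximal (chr5:135887812-135887839, plus strand): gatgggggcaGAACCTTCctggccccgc
Hspd1 (chr1:55088053-55088082, minus strand): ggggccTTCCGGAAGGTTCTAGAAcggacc
Hspe1 (chr1:55088053-55088082, plus strand): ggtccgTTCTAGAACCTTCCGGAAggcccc
Some genes have several annotated starts and so several windows. A 2-unit match was found in 7 of the members' 10 windows, and in 12.8% of all 32851 promoter windows of this length. The 7 are not separate observations. Both Hsph1 windows hold the same match, Hspd1 and Hspe1 share 1 stretch, and the Hspa1a and Hspa1b windows are near-identical. Counted by gene, 6 of the 7 members had it in some window, Dnajb1 being the one without it, against 14.5% of all genes in the table. The 3-unit form was found in 2 of the 10 windows, 1 each of Hspd1 and Hspe1, and in 0.466% of all windows. The Hsph1 match and the stretch between Hspd1 and Hspe1 lie before a RefSeq start but within an exon of a member in GENCODE M21, and inside the coordinates of Hsph1 and Hspd1 in the deposited table. These matches are letters in a window and no binding was measured.

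None of the 10 members passed the quasi-likelihood test of edgeR for a difference between ages. A gene counts as called when its p, adjusted by Benjamini-Hochberg over all 18407 tested genes, is under 0.05. No member was called at 30M against 6M, where 1.96% of all tested genes were called, nor at 30M against 12M, where 0.712% were. None was called at 12M against 6M (background 0.00%), at 20M against 6M (0.0163%), at 20M against 12M (0.00%) or at 30M against 20M (0.212%). The joint test over the 4 ages called no member against 1.11% of all genes, and the slope per month called none against 2.68%. DESeq2 and limma voom also called no member in any of the comparisons.

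An unadjusted p under 0.05 was found by edgeR for 1 member at 30M against 6M, where 11.6% of all tested genes had one, and for 5 at 30M against 12M, where 10.9% had one. The count was 0 at 12M against 6M (3.60% of all genes), 1 at 20M against 6M (7.80%), 3 at 20M against 12M (11.2%) and 0 at 30M against 20M (8.89%). It was 0 in the joint test (11.2%) and 2 for the slope (13.3%). With DESeq2 the counts were 1 at 30M against 6M, 6 at 30M against 12M and 3 for the slope, and with voom 0, 1 and 1. Single libraries moved these counts widely. Without 12M_206 the edgeR count was 4 at 12M against 6M, 8 at 20M against 12M, 9 at 30M against 12M and 8 in the joint test. Without 6M_201 it was 3 at 20M against 6M, 4 at 30M against 6M, 3 in the joint test and 4 for the slope. At 30M against 12M it was 0 without 6M_203, 12M_207, 30M_218 or 30M_220 and 2 without 12M_208 or 20M_213, and at 20M against 12M it was 0 without 12M_207 or 20M_221. At 30M against 6M the count of 1 was 0 without 6M_202, 6M_203, 30M_218, 30M_220 or any 1 of the 20M libraries, and at 20M against 6M it was 0 without 6M_202, 6M_203 or any 1 of the 20M libraries. For the slope it was 1 without 6M_202, 6M_203, 12M_208, 20M_213, 20M_221, 30M_218 or 30M_220, and in the joint test it was 1 without 12M_208, 20M_222 or 30M_216.

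The point estimates at 30M lay below those at 6M and 12M. At 30M against 6M all 10 members had a negative log2 change, with a median of -0.44 and a range of -1.07 to -0.11, while the median over all tested genes was 0.00284. Without 6M_202 or without 30M_220 that median was -0.29, while it was -0.63 without 6M_201 and -0.64 without 30M_216. At 30M against 12M all 10 were again negative, with a median of -0.66 and a range of -2.44 to -0.17, and at 20M against 12M all 10 were negative with a median of -0.63. Without 12M_207 these medians were -0.34 and -0.14, so 1 library carried much of the difference from 12M. Without 12M_206 they were -0.91 and -0.88. These comparisons share libraries, and the members vary together, so the shared sign is not 10 separate observations.

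At 12M against 6M 9 members were positive and 1 was negative, with a median of 0.25. That median was -0.09 without 12M_207, 0.00164 without 6M_201, 0.40 without 6M_203, 0.44 without 6M_202 and 0.59 without 12M_206. At 30M against 20M 4 were positive and 6 negative, with a median of -0.11. It was 0.09 without 20M_222, 0.27 without 20M_221, 20M_222 and 30M_220 together, -0.26 without 20M_213 or 30M_216 and -0.02 without 30M_218. Neither comparison thus had a direction that held. The mean level was highest at 12M for 9 members, though for Hspe1 only by 73.42 CPM at 12M against 73.39 CPM at 6M, and at 6M for Hsp90aa1. It was lowest at 30M for 6 members and at 20M for Hspa8, Hsp90aa1, Hspd1 and Hspe1.

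**Figure D1:**
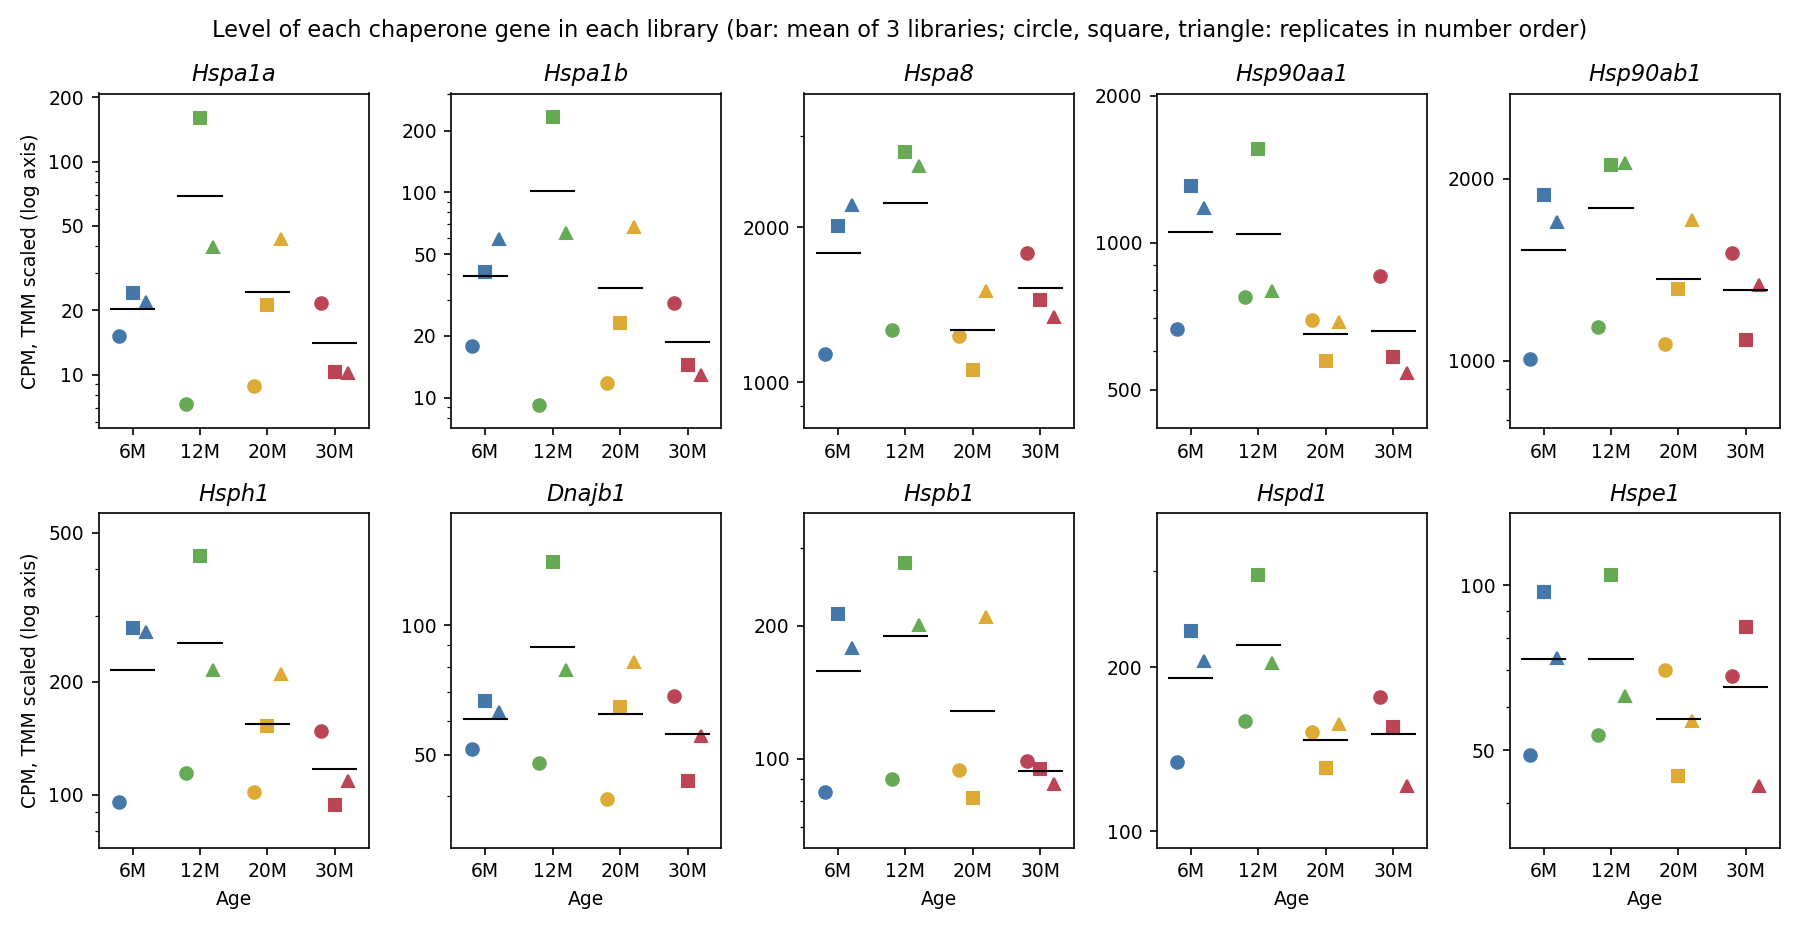
Level of each of the 10 chaperone genes in each of the 12 libraries, in TMM-scaled CPM on a log axis whose range differs between panels, by age, with a bar at the mean of the 3 libraries of an age. Library 12M_207, the square at 12M, is the highest of all 12 libraries for 9 genes, and the ages overlap in every panel except for Hsp90aa1 and Hspd1 at 20M against 12M.

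Levels are given as CPM, counts scaled to a library of 1000000 after TMM scaling. Hspa1a and Hspa1b encode the stress-inducible HSP70 proteins, which are low in unstressed tissue and strongly induced by unfolded protein. Hspa1a (ENSMUSG00000091971, chr17:34969190-34972156, minus strand, GRCm38) had 15.2, 24.1 and 21.9 CPM at 6M, 7.29, 160 and 39.9 CPM at 12M, 8.85, 21.3 and 43.2 CPM at 20M and 21.7, 10.3 and 10.2 CPM at 30M. Hspa1b (ENSMUSG00000090877, chr17:34956436-34959238, minus strand) had 17.8, 40.9 and 59.4 CPM at 6M, 9.24, 233 and 63.6 CPM at 12M, 11.8, 23.1 and 68.2 CPM at 20M and 28.9, 14.5 and 12.9 CPM at 30M. For both genes the highest and the lowest of all 12 libraries were of the same age, 12M_207 and 12M_206, which differed 22.0-fold for Hspa1a and 25.2-fold for Hspa1b. The 30M libraries lay inside the range of the 12M libraries for both.

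Hspa1a averaged 14.1 ± 6.59 CPM at 30M and 69.2 ± 80.6 CPM at 12M (SD, n = 3 each), and its log2 change of -2.30 ± 0.95 (SE) had an adjusted p of 0.412 by edgeR. For Hspa1b the mean was 18.8 ± 8.78 CPM at 30M and 102 ± 117 CPM at 12M (SD, n = 3 each), with a log2 change of -2.44 ± 1.04 (SE) and an adjusted p of 0.431 by edgeR. Without 12M_207 the log2 changes at 30M against 12M were -0.75 for Hspa1a and -0.96 for Hspa1b, so 1 library carried most of this difference. With 1 library left out, whichever it was, these changes ran from -2.83 to -0.75 for Hspa1a and from -2.99 to -0.96 for Hspa1b. Against 6M, where the mean was 20.4 ± 4.62 CPM for Hspa1a and 39.4 ± 20.8 CPM for Hspa1b, the log2 changes at 30M were -0.54 and -1.07, with adjusted p of 0.914 and 0.811 by edgeR.

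The counts of these paralogs are uncertain, because their sequences are near-identical and the handling of reads that fit both is not given in the sources used here. The ratio of Hspa1b to Hspa1a counts was 1.08 to 2.71 between libraries, with a median of 1.37. Hspa1a also shares 2225 bases with Gm20481, an annotated gene on the opposite strand, and whether counting used the strand is not given. Gm20481 had 2234 counts in all, beside 4834 for Hspa1a. Its log2 CPM followed that of Hspa1a at r = 0.996 over the 12 libraries. Without the strand, reads in the shared bases cannot be assigned to 1 of these genes.

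Hspa8 (ENSMUSG00000015656, chr9:40800984-40810087, plus strand) encodes HSC70, the HSP70 protein that most cells make at all times. It had 1134, 2013 and 2206 CPM at 6M, 1264, 2796 and 2632 CPM at 12M, 1231, 1057 and 1505 CPM at 20M and 1779, 1445 and 1337 CPM at 30M. The highest library exceeded the lowest 2.64-fold, far less than for the inducible pair, and the 30M libraries lay within the range of the 6M libraries. At 30M the mean was 1520 ± 230.4 CPM and at 6M 1784 ± 571.8 CPM (SD, n = 3 each), a log2 change of -0.23 ± 0.30 (SE) with an adjusted p of 0.880 by edgeR. At 20M against 12M its log2 change was -0.82 with an adjusted p of 0.429 by edgeR, the lowest of the members in that comparison together with Hspd1.

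The HSP90 pair fold and hold signalling proteins such as kinases and steroid receptors, Hsp90aa1 being the stress-responsive and Hsp90ab1 the constitutive gene. Hsp90aa1 (ENSMUSG00000021270, chr12:110690605-110702728, minus strand) had 666, 1308 and 1179 CPM at 6M, 775, 1554 and 796 CPM at 12M, 694, 571 and 687 CPM at 20M and 856, 584 and 542 CPM at 30M. All 3 libraries at 20M lay below all 3 at 12M, as they did for Hspd1, which makes 2 of 10 members, while 7.42% of all tested genes were lower without overlap in that comparison. Libraries 30M_218 and 30M_220 lay below every 6M library, but 30M_216 lay above 6M_201. Hsp90aa1 averaged 661 ± 170.1 CPM at 30M and 1051 ± 339.6 CPM at 6M (SD, n = 3 each), and its log2 change of -0.67 ± 0.31 (SE) had an unadjusted p of 0.0469 and an adjusted p of 0.421 by edgeR. Its slope of -0.033 ± 0.012 (SE) log2 units per month had the lowest adjusted p of the members for the trend, 0.204 by edgeR.

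Hsp90ab1 (ENSMUSG00000023944, chr17:45567775-45573271, minus strand) had 1006, 1878 and 1692 CPM at 6M, 1137, 2103 and 2126 CPM at 12M, 1065, 1314 and 1711 CPM at 20M and 1509, 1083 and 1336 CPM at 30M. The 4 ages overlapped, and 12M_208 stood just above 12M_207. Its mean was 1309 ± 214.7 CPM at 30M and 1526 ± 459.3 CPM at 6M (SD, n = 3 each), with a log2 change of -0.22 ± 0.29 (SE) and an adjusted p of 0.877 by edgeR.

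Hsph1 and Dnajb1 are partners of HSP70, Hsph1 as an HSP110 that exchanges its nucleotide and Dnajb1 as a J-domain protein that brings it clients. Hsph1 (ENSMUSG00000029657, chr5:149614287-149636376, minus strand) had 95.9, 277 and 272 CPM at 6M, 114, 433 and 215 CPM at 12M, 102, 153 and 210 CPM at 20M and 148, 93.8 and 109 CPM at 30M. The 30M libraries all lay below 6M_202 and 6M_203, but 2 of them lay above 6M_201. The mean was 117 ± 27.9 CPM at 30M and 215 ± 103 CPM at 6M (SD, n = 3 each), and the log2 change of -0.88 ± 0.49 (SE) had an adjusted p of 0.565 by edgeR. Its slope was -0.044 ± 0.020 (SE) log2 units per month, with an adjusted p of 0.337 by edgeR.

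Dnajb1 (ENSMUSG00000005483, chr8:83608193-83612653, plus strand) had 51.6, 66.8 and 63.0 CPM at 6M, 47.9, 140 and 78.8 CPM at 12M, 39.5, 64.6 and 82.1 CPM at 20M and 68.5, 43.5 and 55.3 CPM at 30M. The 30M libraries spanned those of 6M. At 30M the mean was 55.8 ± 12.5 CPM and at 6M 60.4 ± 7.91 CPM (SD, n = 3 each), a log2 change of -0.11 ± 0.35 (SE) with an adjusted p of 0.956 by edgeR. The 95% interval of that change ran from -0.88 to 0.65.

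Hspb1 (ENSMUSG00000004951, chr5:135887919-135889563, plus strand) encodes a small heat shock protein that holds unfolding clients and binds actin. It had 83.9, 212.8 and 178 CPM at 6M, 89.7, 277 and 201.3 CPM at 12M, 94.2, 81.6 and 210 CPM at 20M and 98.6, 94.6 and 87.4 CPM at 30M. The 3 libraries at 30M lay within 1.13-fold of each other, while the highest over the lowest was 2.54 at 6M, 3.09 at 12M and 2.57 at 20M. Each younger age had 1 or 2 libraries within or below the 30M range and 1 or 2 at 178 CPM or above. Its mean was 93.5 ± 5.71 CPM at 30M and 158 ± 66.7 CPM at 6M (SD, n = 3 each), with a log2 change of -0.76 ± 0.46 (SE) and an adjusted p of 0.611 by edgeR.

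Hspd1 and Hspe1 encode HSP60 and HSP10, the ring and the lid of the mitochondrial chaperonin, and lie head to head on chromosome 1. Hspd1 (ENSMUSG00000025980, chr1:55077835-55088243, minus strand) had 134, 234 and 205.7 CPM at 6M, 159, 295 and 204 CPM at 12M, 152, 131 and 158 CPM at 20M and 176, 155 and 121 CPM at 30M. Hspe1 (ENSMUSG00000073676, chr1:55088132-55091307, plus strand) had 49.0, 97.4 and 73.8 CPM at 6M, 53.3, 104 and 62.7 CPM at 12M, 69.95, 44.8 and 56.5 CPM at 20M and 68.4, 83.98 and 43.1 CPM at 30M. The ages overlapped for Hspe1 in every comparison, and Hspd1 at 20M lay below 12M without overlap, its highest 20M library standing just under 12M_206.

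Hspd1 averaged 151 ± 27.7 CPM at 30M and 191 ± 51.3 CPM at 6M (SD, n = 3 each), with a log2 change of -0.34 ± 0.24 (SE) and an adjusted p of 0.690 by edgeR. For Hspe1 the mean was 65.1 ± 20.7 CPM at 30M and 73.4 ± 24.2 CPM at 6M (SD, n = 3 each), with a log2 change of -0.17 ± 0.32 (SE) and an adjusted p of 0.919 by edgeR. The annotated genes overlap by 112 bases on opposite strands, where reads cannot be assigned without the strand.

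**Figure D2:**
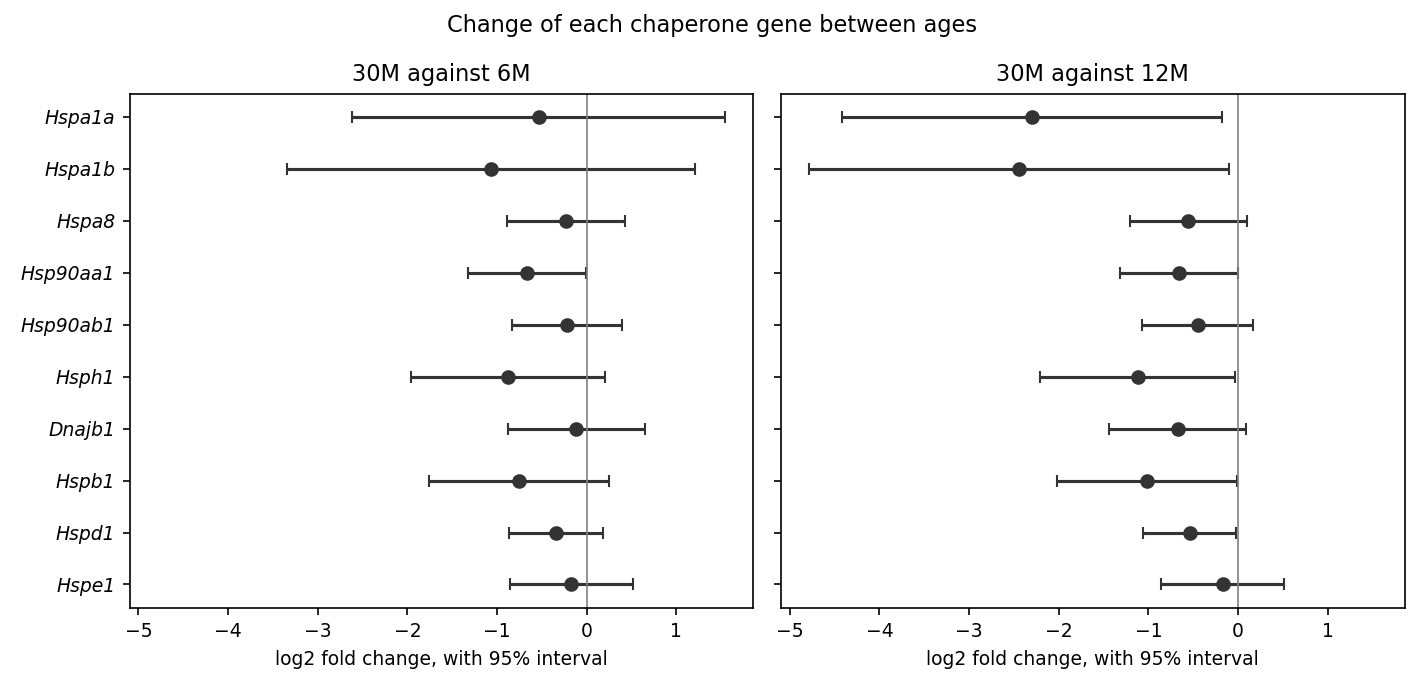
Log2 fold change of each chaperone gene at 30M against 6M (left) and at 30M against 12M (right) from the edgeR fit, with its 95% interval and a line at 0. All 20 points lie below 0, the intervals of Hspa1a and Hspa1b are the widest, and no adjusted p was under 0.05.

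Per kilobase of exon, a scale on which genes can be compared, Hsp90ab1 and Hspa8 were the most abundant members, at means over the 12 libraries of 499 and 395 CPM per kb. Hsp90aa1 followed at 216.5, Hspb1 at 138, Hspd1 at 67.0 and Hspe1 at 45.6 CPM per kb. The lowest were Hsph1 at 25.5, Dnajb1 at 20.9 and the inducible pair Hspa1b at 17.3 and Hspa1a at 10.8 CPM per kb. The SD over libraries was 22.1 for Hspa1b and 14.2 for Hspa1a, above their means. The order among the lowest 4 genes differed between libraries. Dnajb1 stood above Hspa1b in 12M_206 (47.9 and 9.24 CPM) and below it in 12M_207 (140 and 233 CPM). Hspa1b counts exceeded those of Hspa1a in all 12 libraries, by a ratio of at least 1.08.

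Spread between libraries of the same age was wide for these genes. The biological coefficient of variation (BCV), edgeR's measure of variation beyond counting error, was 0.236 in common over all genes. For Hspa1b the BCV was 0.787, which is 4.31 times the trend of genes at its abundance, and for Hspa1a it was 0.726, or 3.76 times. Hsph1 stood at 2.23 times its trend, Hspb1 at 2.09, Dnajb1 at 1.67 and Hspe1 at 1.53 times. The other 4 members lay between 1.17 (Hspd1) and 1.37 (Hsp90aa1) times their trend. Differences between ages took a median of 24.0% of the variance of log2 CPM over the members, from 11.5% for Hspe1 to 43.8% for Hsp90aa1, while the median over all tested genes was 31.1%. Means of 3 libraries differ through spread alone, and these shares are not corrected for that.

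**Figure D3:**
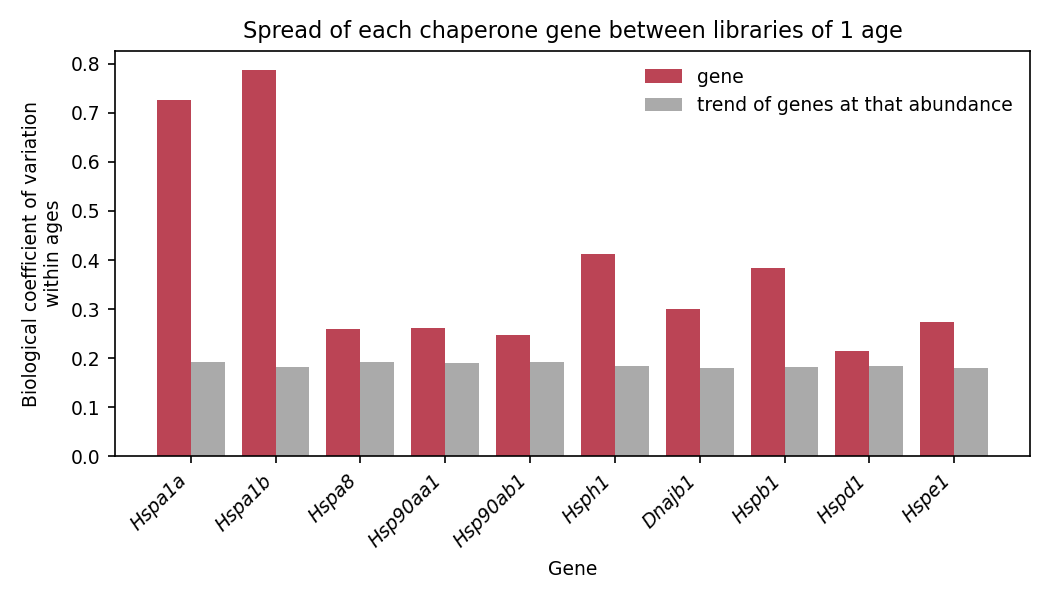
Biological coefficient of variation within ages for each chaperone gene (red bars, from edgeR) beside the trend of genes at the same abundance (grey bars). All 10 genes stand above their trend, Hspa1a and Hspa1b by the most at 3.76 and 4.31 times.

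Within an age, most members were high in the same library, and at 6M and 12M all were low in the same one. Libraries 6M_201 and 12M_206 were the lowest of their age for all 10 members. At 20M the lowest was 20M_213 for 5 members and 20M_221 for 5, and at 30M it was 30M_220 for 7 and 30M_218 for 3. The highest of its age was 12M_207 for 9 members (12M_208 for 1), 30M_216 for 9 (30M_218 for 1), 6M_202 for 8 (6M_203 for 2) and 20M_222 for 8 (20M_213 for 2). As a mean of standardized log2 levels over the 10 members, 12M_207 stood highest at 1.93 SD, followed by 6M_202 at 0.85, 12M_208 at 0.71 and 6M_203 at 0.63. Library 20M_222 stood at 0.32 and 30M_216 at 0.04, and the other 6 libraries lay between -0.85 and -0.63. Every age thus held at least 1 library at the low level, and the 3 libraries above 0.7 were of 6M and 12M.

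Over the 12 libraries, Pearson's r of log2 CPM was positive for all 45 pairs of members, with a median of 0.82. By permutation test with adjustment over the 45 pairs, 40 pairs had an adjusted p under 0.05 for r and 36 for Spearman's rho. Hspa1a and Hspa1b had the highest r, 0.97 (rho 0.99, permutation p of 1e-05 for each, the smallest that these permutations can give). Some reads may fit both of these near-identical genes, and how such reads were counted is not given. Hspa1a and Dnajb1 followed at r = 0.97 (rho 0.92, adjusted permutation p = 0.000112 for r and 0.000300 for rho), and Hsp90aa1 and Hspd1 stood at r = 0.94 (rho 0.96, adjusted permutation p = 0.000112 and 0.000225). The lowest was that of Dnajb1 and Hspe1, at r = 0.36 (rho 0.20, adjusted permutation p = 0.258 and 0.545), and all 5 pairs that missed the threshold for r involved Hspe1.

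Deviations from each age's mean, which hold no difference between ages, gave a median r of 0.81 with 40 pairs past the threshold. The permutations moved deviations across ages as if independent, though those of an age are tied by its mean, so that count is descriptive only. Leaving out the 2 libraries farthest from the median of the first gene of a pair lowered the median r to 0.71, with a range of 0.03 to 0.94. Without 12M_207 the median r was 0.75 and 29 of 45 pairs passed. Against the mean of the other 9 members, r ran from 0.64 for Hspe1 to 0.95 for Hsph1.

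**Figure D4:**
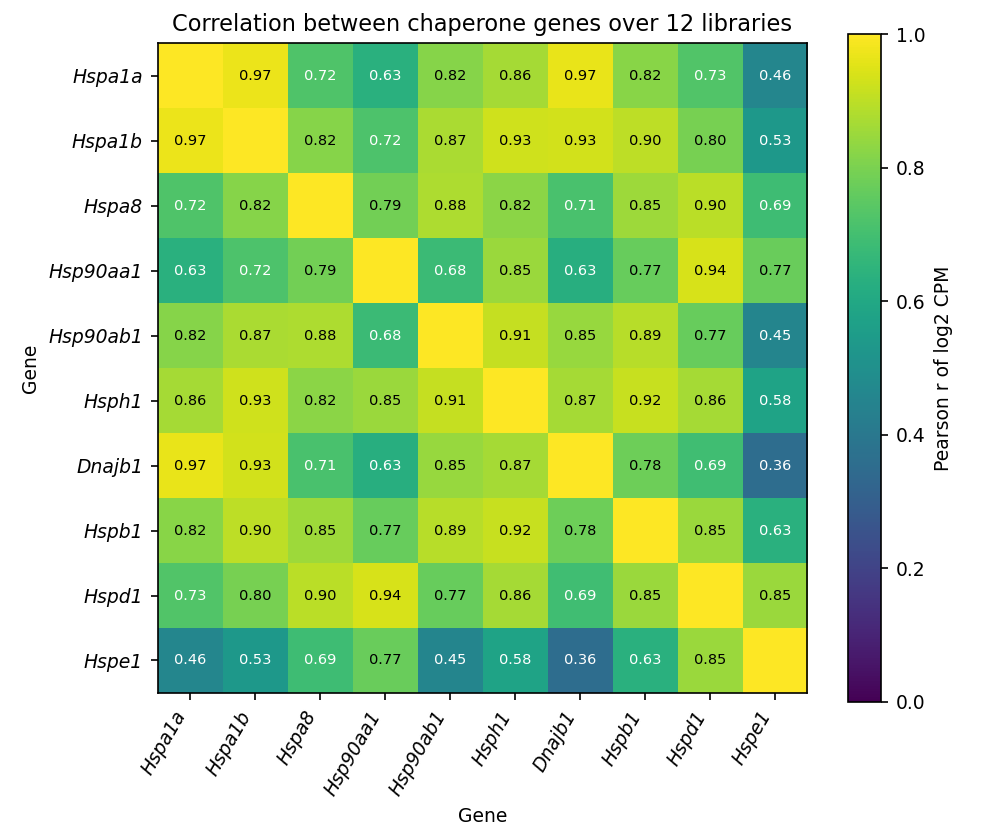
Pearson's r of log2 CPM over the 12 libraries for every pair of chaperone genes, printed in each cell and coloured from 0 to 1. Values run from 0.36 to 0.97, and the Hspe1 row holds the lowest ones.

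Genes outside the set that followed it most closely were themselves mostly chaperone partners. The ranking took in 12157 genes, those with a mean of at least 5 CPM and a symbol that is not a predicted-gene, Rik or pseudogene name. By Pearson's r with the members' mean, the 6 highest were Stip1 at 0.97, Dnaja1 at 0.96, Fkbp4 at 0.94, P4ha1 at 0.94, St13 at 0.93 and Hspa5 at 0.92. Stip1 passes clients from HSP70 to HSP90, Dnaja1 is a J-domain partner of HSP70, Fkbp4 is a prolyl isomerase bound to HSP90, St13 binds HSP70, P4ha1 hydroxylates collagen prolines, and Hspa5 is the HSP70 of the endoplasmic reticulum. Without 12M_207 and 6M_202, the 2 libraries farthest out, the same 6 values ran from 0.87 to 0.97. Over all 18397 other tested genes, with no such filter, 77 (0.419%) had an r of at least 0.8, and the median r was -0.0096. Stip1 had 96.9, 185 and 187 CPM at 6M, 113, 235 and 197 CPM at 12M, 101, 105 and 148 CPM at 20M and 131, 110 and 105 CPM at 30M, with 12M_207 the highest and 6M_201 the lowest. Its mean was 115 ± 13.8 CPM at 30M and 156 ± 51.5 CPM at 6M (SD, n = 3 each), with an adjusted p of 0.649 by edgeR.

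For the summed counts of Hspa1a and Hspa1b alone, the closest gene with a mean of at least 5 CPM was the overlapping Gm20481 at r = 0.98, which the ranking leaves out by its name. The 6 most alike genes within the ranking were Proser2 at r = 0.95, Maff at 0.92, Pmvk at 0.89 and Dnaja1, Dda1 and Pja1 at 0.88 each. Maff encodes a small Maf transcription factor and Pmvk an enzyme of the mevalonate pathway. All 6 ranked genes had their highest level in 12M_207, as did the 2 chaperone genes. Since that library dominates the summed counts by which these genes were picked, the shared peak is no separate observation. Proser2 ran from 7.66 CPM in 12M_206 to 22.6 CPM in 12M_207.

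Other chaperones and their regulators were taken from 9 lists with 94 genes, of which 92 were tested. None of the 92 was called in any comparison by edgeR. At 30M against 6M 7 of them had an unadjusted p under 0.05, at 30M against 12M 11, and for the slope 12, while the shares over all tested genes were 11.6%, 10.9% and 13.3%, so these counts were near the background. At 20M against 12M 22 of the 92 had one, beside 11.2% of all tested genes. The lowest adjusted p among them was 0.0973 by edgeR, for the slope of Hspa4l, an HSP110 gene. Of these 92 genes 15 had an r of at least 0.8 with the members' mean, and the median r over the 92 was 0.45.

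Among partners of HSP70 and HSP90, list means followed the members' mean, but many single genes did not. The mean of 8 other HSP70 family genes stood at r = 0.93 with that of the members (0.95 without 12M_207 and 6M_202), while the median r of its single genes was 0.35 and 2 of 8 reached 0.8. For 14 HSP90 co-chaperones the list mean stood at 0.90 (0.77 without those 2 libraries), the median gene at 0.30, and 4 of 14 reached 0.8. For 14 J-domain proteins the list mean stood at 0.84 (0.58), the median gene at 0.33, and 3 of 14 reached 0.8. For 7 HSP70 nucleotide exchange factors the list mean stood at 0.72 (0.73), the median gene at 0.35, and 0 of 7 reached 0.8.

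The 4 genes of each list with the smallest joint p differed widely in r. In the HSP70 family Hspa4 had 0.89, Hspa4l 0.80, Hspa13 0.69 and Hspa12a -0.33. Among HSP90 co-chaperones Stip1 had 0.97, Ahsa1, which stimulates the ATPase of HSP90, 0.90, Chordc1 0.87 and Ptges3, the p23 co-chaperone, 0.74. J-domain proteins Dnaja4, Dnajb2, Dnajb4 and Dnajb6 had 0.84, 0.82, 0.57 and 0.41. Exchange factors Bag3, Bag1, Hspbp1 and Bag2 had 0.77, 0.49, 0.31 and 0.11. The 4 lists' median log2 changes at 30M against 6M were -0.08 (HSP70 family), -0.23 (co-chaperones), -0.08 (J-domain) and -0.03 (exchange factors), beside 0.00284 over all genes. Hspa4l averaged 87.3 ± 17.5 CPM at 30M and 142 ± 38.2 CPM at 6M (SD, n = 3 each), a log2 change of -0.70 ± 0.23 (SE) with an adjusted p of 0.187 by edgeR.

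Other chaperone lists followed the members to differing degrees. The mean of 14 endoplasmic reticulum chaperones stood at r = 0.85, with all 14 genes above 0.5, among them Hspa5 at 0.92, Manf at 0.85, Dnajb9 at 0.68 and Dnajc3 at 0.66. The cytosolic folding ring TRiC with prefoldin stood at 0.63, with Cct6a at 0.75, Cct2 at 0.73, Cct5 at 0.71 and Pfdn1 at 0.41. The 11 mitochondrial chaperones and proteases stood at 0.45 (0.26 without 12M_207 and 6M_202), with Hspa9, the mitochondrial HSP70, at 0.69, Grpel2 at 0.48, Hscb at -0.31 and Timm44 at -0.38. The 6 other small heat shock proteins stood at 0.41, with Cryab at 0.60, Hspb7 at 0.10, Hspb6 at 0.00124 and Hspb2 at -0.19. An r of at least 0.8 was reached by 1 of these 6, Hspb8 at 0.87. It was also reached by 3 of 14 endoplasmic reticulum genes, 2 of 14 TRiC and prefoldin genes (Cct3 at 0.90, Cct7 at 0.82) and 0 of 11 mitochondrial genes.

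The heat shock factor list held 3 tested factors and Hsbp1, which encodes a protein that binds HSF1. Hsf1 had r = -0.03 with the members' mean, Hsf2 -0.46 and Hsf4 -0.57, while Hsbp1 had 0.40, and the mean of the 4 genes had -0.39. Hsf1 averaged 41.6 ± 9.65 CPM at 30M and 41.9 ± 3.997 CPM at 6M (SD, n = 3 each), with an adjusted p of 0.994 by edgeR. HSF1 is known to be controlled largely at the protein level.

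**Figure D5:**
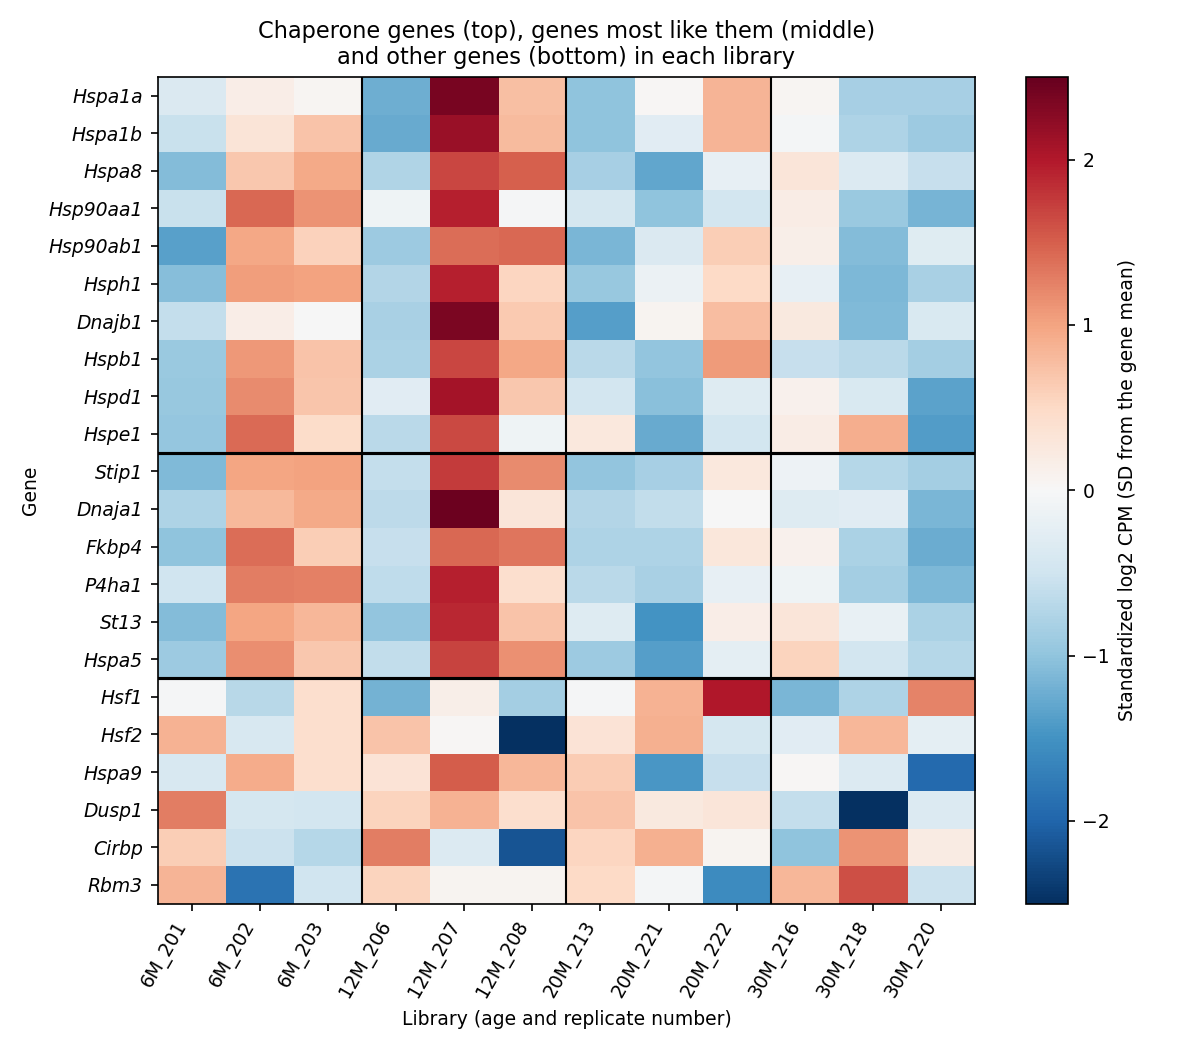
Standardized log2 CPM, in SD from each gene's mean, of the 10 chaperone genes (top block), the 6 genes most like them (middle block) and 6 other genes (bottom block) in each of the 12 libraries, grouped by age from 6M to 30M. The top and middle blocks are red in 12M_207 and blue in 6M_201 and 12M_206 apart from single pale cells, and of the bottom block Hspa9 alone has its highest value in 12M_207.

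Other lists show what else differed between these libraries. The 20 immediate early genes, which are transcribed soon after many stimuli, had a list mean with r = 0.12 to the members' mean and no call. Without 12M_207 and 6M_202 that r was -0.56. Single genes of this list had r of 0.43 for Klf6, 0.29 for Klf4, 0.21 for Btg2 and 0.12 for Dusp1. Dusp1, a phosphatase gene of this list, averaged 135 ± 56.1 CPM at 30M and 224.5 ± 98.5 CPM at 6M (SD, n = 3 each), with an adjusted p of 0.392 by edgeR. The cold-induced RNA-binding protein genes Cirbp and Rbm3 had r = -0.66 and -0.43 with the members' mean, and no call. Lung epithelium markers stood at r = 0.64 for the list mean, with summed levels of 42199 to 95666 CPM over all libraries, so lung tissue was present in each. Of its genes Sftpa1 had r = 0.63, Ager 0.57, Hopx 0.51 and Foxj1 0.36. Hopx, a marker of alveolar type 1 cells, averaged 845 ± 211 CPM at 30M and 1311 ± 201.1 CPM at 6M (SD, n = 3 each), with an adjusted p of 0.267 by edgeR.

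Macrophage and lymphocyte markers were the lists with calls. Of all tested genes, 1.96% were called at 30M against 6M and 0.712% at 30M against 12M, in either direction. Of 6 macrophage markers, 5 were called higher at 30M against 6M and 6 at 30M against 12M. C1qa, C1qb, C1qc, Adgre1 and Cd68 were called in both, and Marco at 30M against 12M, its adjusted p at 30M against 6M being 0.0535 by edgeR. C1qb averaged 104 ± 21.3 CPM at 30M and 27.97 ± 1.93 CPM at 6M (SD, n = 3 each). Summed over the 6 genes, the level was 338 to 449 CPM at 30M and 100.2 to 128 CPM at 6M, and the list mean had r = -0.36 with that of the members. Of 6 lymphocyte markers 3 were called at 30M against 6M (Cd3e, Cd3g and Jchain) and Nkg7 had an adjusted p of 0.0958 by edgeR, with r = -0.56 for the list mean. The part of such cells in the members' levels was not tested. Smooth muscle, cardiac muscle and endothelium markers had list means with r = 0.11, 0.16 and 0.13.

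One library of 20M, 20M_222, held skeletal muscle transcripts. The 11 markers of that list, 6 of them tested, summed to 3819 CPM in it, against 12.2 to 48.3 CPM in the other 11 libraries. Library totals were 12152066 to 15058628 counts, and the total had r = -0.46 with the members' mean (-0.28 without 12M_207 and 6M_202). In 20M_221, 20M_222 and 30M_220 the level of genes rose most with their GC content, at rho of 0.328 to 0.465 over genes, and that measure had r = -0.11 with the members' mean. Without these 3 libraries the median r between members was 0.86, and no member was called in any comparison.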

How the data were processed

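The deposited table gives raw counts per gene. Per the submitters' processing notes, FastQC 0.11.7, Trimmomatic 0.38, HISAT2 2.1.0, featureCounts and build GRCm38 (mm10) were used. For the annotation release, strand setting and treatment of multi-mapping reads, the sources used here give nothing. Of the 55487 genes, 55227 are in GENCODE M21, which gave exonic length and GC content (18382 of 18407 tested genes).

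Counts were tested with edgeR 4.0.16 in R 4.3.3 (TMM, filterByExpr by age, robust quasi-likelihood fit, all 12 libraries in 1 fit), with DESeq2 1.42.0 and limma 3.58.1 (voom) as alternatives. CPM is TMM-scaled, and correlations used log2 CPM with a prior count of 2 and 100000 permutations. Promoter sequences are those of RefSeq (GRCm38.p6). Libraries of the same age differed beyond sampling noise (chi-square per gene 6.66 to 49.9).

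The members and lists were chosen with earlier results of these data known. All members are named, and from each other list up to 4 genes with the smallest joint p and any called gene (muscle and endothelium markers are given as lists only), together with the 6 genes most like the members. The remaining lymphocyte markers, Cd79a and Ms4a1, are named as well. The threshold of 0.8 on r and the genes named for it, and the choice of promoters shown, were made after values were seen. The edgeR test was tested on simulated data.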

Additional observations from a re-analysis of the deposited data

How the results depend on the processing

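No paired analysis was possible because the 4 ages share no replicate number. No member was called in any comparison under any of 19 or 20 alternatives per comparison, the lowest adjusted p being 0.0886 (limma voom, joint test). Of 600 member values at 30M against 6M, 30M against 12M and for the slope under alternatives, 592 kept their direction and 8 turned round. Without 20M_221, 20M_222 and 30M_220, the log2 change of Hspe1 was 0.0538 at 30M against 6M, 0.0601 at 30M against 12M and 0.00175 per month. With 1 library left out, that of Hspe1 ran from -0.40 to 0.083 at 30M against 6M (positive without 6M_202 or 30M_220) and from -0.40 to 0.165 at 30M against 12M (positive without 12M_207 or 30M_220), and that of Dnajb1 from -0.29 to 0.0342 at 30M against 6M (positive without 30M_218). All genes called at 30M against 6M numbered 361, against 753 with DESeq2, 600 with limma voom and 69 to 415 with 1 library left out (69 without 6M_203, 121 without 6M_202, 214 without 30M_218, 217 without 6M_201). The cause was not tested. Alternatives for single members in the other comparisons are covered by the counts only. The members' lowest count in a library was 97 (Hspa1a in 12M_206), and the 95% interval of the log2 change of Hspa1a at 30M against 6M was -2.62 to 1.54.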
